A study of Homo sapiens with 12 samples.

Results

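The genes described here carry glucose through glycolysis to pyruvate and lactate, or take part in the response to low oxygen. They were chosen by symbol from a list of 34 genes, and all 34 were found among the 20003 genes of the mRNA-seq data. The list holds 2 glucose transporters, the enzymes and isoenzymes of the pathway from hexokinase to lactate dehydrogenase, 2 monocarboxylate transporters, 4 pyruvate dehydrogenase kinases with 1 subunit of their substrate, and HIF1A, VEGFA, BNIP3 and BNIP3L. Expression was measured in NB4 cells, a line of acute promyelocytic leukemia that carries the PML-RARα fusion gene, and in Kasumi-1 cells, a line of acute myeloid leukemia that carries the AML1-ETO fusion gene. Of each cell line, 3 control samples were incubated with DMSO for 48 h and 3 samples with 1 μM OGP46 for 48 h, which gives 12 samples in 4 groups. These times are those of the labels, and a legend of the study names a longer incubation for the sequenced cells. OGP46 is a diterpenoid made from oridonin, and the study asked which genes it moves while it induces differentiation of these cells. Each model is a single cell line, so the difference between the lines cannot be told apart from any other difference between 2 individual lines. The labels do not state whether samples of a group came from separate cultures, so p-values measure only the spread between these samples.

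Glucose enters the cell through transporters of the SLC2A family, is phosphorylated by hexokinase and is split by aldolase into trioses, which give ATP at the steps of phosphoglycerate kinase and pyruvate kinase. Phosphofructokinase is the main point of control, and the PFKFB enzymes set the level of its activator. Lactate dehydrogenase turns pyruvate into lactate, which leaves through the monocarboxylate transporters, while the pyruvate dehydrogenase kinases keep pyruvate from entering the mitochondrial cycle. HIF1A is the oxygen-regulated subunit of hypoxia-inducible factor, which binds the core motif ACGTG or GCGTG at many of these genes. The factor is controlled mainly through the stability of its protein, which mRNA levels do not show. Leukemic blasts are known for active glycolysis.

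The sequence that HIF binds is shown for 6 members, because many genes of glycolysis are known as targets of HIF. The RefSeq promoter table (GRCh38.p14) held windows for 29 of the 34 members, and SLC2A3, PFKFB2, SLC16A1, VEGFA and BNIP3L are named only. In the 250 bases before the start, ACGTG on either strand was found in at least 1 window of 17 of the 29 members (58.6%), against 21.7% of all 27305 genes in the table. Counted by window, it stood in 20 of 58 windows of members (34.5%) and in 18.5% of all 35116 windows. With GCGTG allowed as well, on both strands, the counts were 23 of 29 members (79.3%) and 47.4% of all genes. The palindrome CACGTG, which holds ACGTG on each strand, was found for 8 of 29 members (27.6%) and for 7.73% of all genes. In the sequences, written 5′ to 3′ on the strand of the gene, capitals mark ACGTG or GCGTG on either strand. The members and windows shown were chosen after their values and motifs were seen. HK2 and GAPDH are given whole because their windows hold no annotated exon, and the others as the 30 bases with the most matches. The start is that of the RefSeq window, and all 6 stretches printed lie within the genes as GENCODE annotates them. Annotated exons covered 250 bases of the ALDOC window, 175 of LDHA, 74 of PGK1 and 10 of SLC16A3.
HK2, chr2:74834920-74835169, plus strand: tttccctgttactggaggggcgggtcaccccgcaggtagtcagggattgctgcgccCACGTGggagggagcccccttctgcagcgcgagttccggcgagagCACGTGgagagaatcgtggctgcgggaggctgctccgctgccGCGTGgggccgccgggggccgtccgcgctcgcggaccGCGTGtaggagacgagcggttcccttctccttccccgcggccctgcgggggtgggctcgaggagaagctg
GAPDH, chr12:6535014-6535263, plus strand: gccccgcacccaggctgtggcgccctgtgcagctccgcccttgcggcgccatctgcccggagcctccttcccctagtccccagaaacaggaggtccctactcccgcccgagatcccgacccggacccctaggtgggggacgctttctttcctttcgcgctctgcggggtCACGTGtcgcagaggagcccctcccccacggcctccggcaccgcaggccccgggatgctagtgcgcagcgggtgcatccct
ALDOC, chr17:28577116-28577145, minus strand: aagtgcccggCACGTGgtaaagggattgtg
SLC16A3, chr17:82228968-82228997, plus strand: gcggtgACGTGcgcgggggACGTGccgcgc
LDHA, chr11:18394468-18394497, plus strand: ccgactcaCACGTGggttcccgCACGTccg
PGK1, chrX:78104043-78104072, plus strand: cggACGTGacaaacggaagccgCACGTctc
The HK2 window held 6 matches and that of GAPDH 2, where each palindrome counts as a match on each strand. Both GAPDH matches lie in a single palindrome that begins 81 bases before the start. In PGK1, 2 matches began 202 and 183 bases before the start, and in SLC16A3 at 68 and 55 bases. Described below are 8 members that passed the adjusted p with pairing in NB4. Of these, PFKFB3 and SLC16A3 had ACGTG in these windows, HK1, PFKFB4, PKM and HIF1A did not, and SLC2A3 and VEGFA had no window. With GCGTG allowed as well, HK1, PFKFB4 and HIF1A had a match and PKM had none. A match is a description of the letters only.

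The values deposited are FPKM, fragments scaled to the length of the exons and to the mapped fragments of the sample, so levels of different genes can be compared per length. Read numbers were not used here, and the depth behind each value is unknown. The FPKM of all genes added up to 248207 to 256268 in NB4 controls and 263341 to 291523 in OGP46-treated NB4 cells, without overlap. In Kasumi-1 the sums were 279879 to 310262 and 279802 to 296455. The shift of the NB4 samples touches every NB4 result below, so the main ones are also given after the samples were centred on their medians. Samples numbered 2 stood apart in NB4: their correlation with the others of their group was 0.988 to 0.991, while samples 1 and 3 reached 0.994 and 0.994. Markers of promyelocytic cells (MPO, ELANE, PRTN3, AZU1 and CD33) summed to 2594 to 3867 FPKM in NB4 controls and 9541 to 11782 FPKM in Kasumi-1 controls. MPO made up most of the NB4 sum, with means of 2896 and 5024 FPKM in the controls of NB4 and Kasumi-1. ELANE was at 0.504, 3.30 and 14.5 FPKM in NB4 controls, against a mean of 1505 FPKM in Kasumi-1 controls. These means were 285 and 3047 FPKM for PRTN3, 62.1 and 983 FPKM for AZU1, and 8.08 and 8.57 FPKM for CD33. The markers RUNX1T1, POU4F1, TRH, CD34 and KIT of leukemia with AML1-ETO summed to 263 to 299 FPKM in Kasumi-1 controls and 0.563 to 3.60 FPKM in NB4 controls, highest in NB4 control 3. Of other cell types, COL1A1 and COL1A2 of fibroblasts summed to at most 0.0165 FPKM in any sample. The T cell genes CD3D and CD3E summed to 13.5 to 20.4 FPKM in NB4 controls and 0.338 to 0.700 FPKM in Kasumi-1 controls. In NB4 controls nearly all of this was CD3D, with CD3E at 0.0608 FPKM or less.

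The members differed widely in level. GAPDH was highest in all 4 groups, at 1486 ± 41.7 FPKM (SD, n = 3) in NB4 controls and 1788 ± 137 FPKM in Kasumi-1 controls. It was followed by LDHB and ENO1 in every group. In NB4 controls, 9 members lay at or above 100 FPKM, 10 between 10 and 100, 9 between 1 and 10, and 6 under 1 FPKM. The 5 highest members made up 72.7% to 73.5% of the summed level of the list in NB4 controls and 78.0% to 78.7% in Kasumi-1 controls. These abundant genes (GAPDH, TPI1, PGK1, ENO1, LDHA and LDHB) are enzymes that act after the split of the sugar. The regulators PFKFB3 and PDK1 were far lower, at 4.97 ± 0.176 FPKM and 4.71 ± 0.277 FPKM in NB4 controls. PFKL, the main phosphofructokinase, was at 25.2 ± 1.95 FPKM there. HK3, a hexokinase of myeloid cells, reached at most 0.236 FPKM, and PDK4 was listed at 0 in all Kasumi-1 samples. PGAM1 has a near-identical copy, PGAM4, listed at 0.917 to 2.31 FPKM, and reads of the pair may be split between them.

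**Figure D1:**
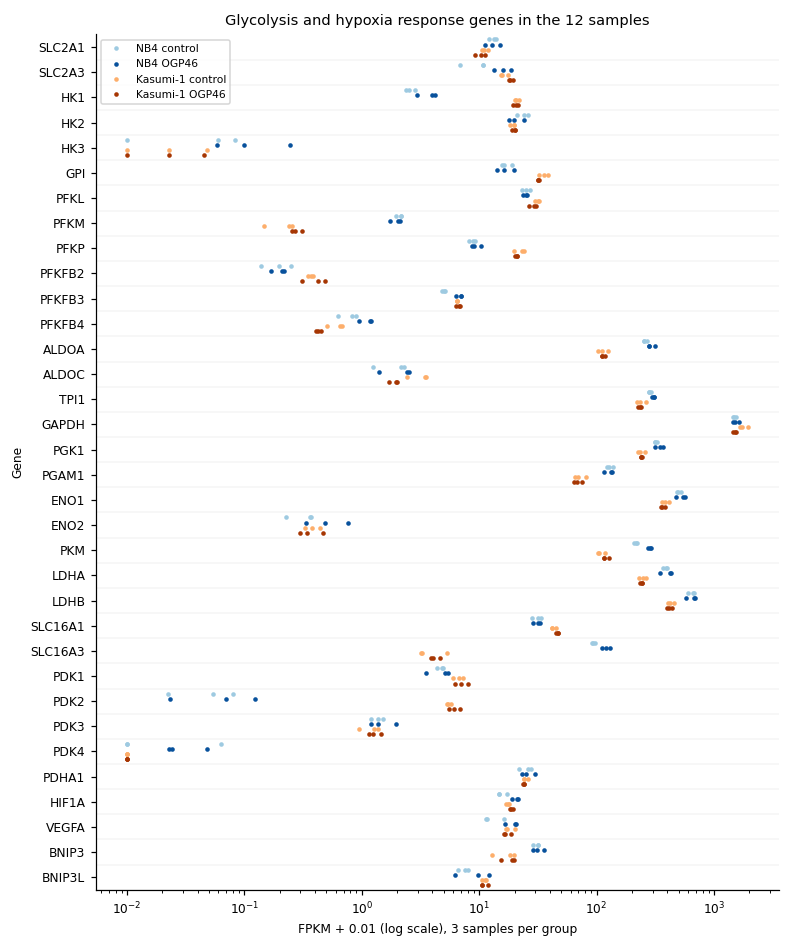
FPKM + 0.01 of the 34 members (rows, in pathway order) on a log axis, with 1 point per sample and 3 samples per group, so that a value of 0 is drawn at 0.01. GAPDH stands at the right in all groups, and SLC16A3, PFKM, HK1 and PDK2 separate the NB4 points from the Kasumi-1 points.

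In NB4 cells, no member was up- or down-regulated by OGP46 at an adjusted p below 0.05 together with a log2 fold change of 0.58, and the median member changed by less than the median gene. Of the 31 members tested, 0 were called higher and 0 lower, where 1.45% and 0.111% of all 11750 genes were called in these directions. HK3, PDK2 and PDK4 were too low to be tested. PKM alone passed the adjusted p without the fold minimum, as 2.46% of all genes did in the higher direction. The median log2 fold change of the members was 0.09, against 0.18 for all genes, and 10 of the 31 members lay above the median of all genes. In each pair of samples with the same number, the median member lay below the median gene, by 0.058, 0.063 and 0.080. The 2 groups did not overlap for 10 members, all higher (32.3%), and such genes were 32.7% of all genes in the higher and 1.91% in the lower direction. In these bulk samples, fewer cells of a type and less RNA per cell cannot be told apart. The summed markers CD14, ITGAM, CSF1R, CD68 and FCGR1A of monocytes and macrophages stood at 15.2 to 16.7 FPKM in NB4 controls and 23.6 to 27.8 FPKM with OGP46. The means were 8.93 and 13.7 FPKM for CD68, 2.74 and 5.93 FPKM for ITGAM, and 0.147 and 0.708 FPKM for CD14. For CSF1R (1.88 and 3.05 FPKM) and FCGR1A (2.20 and 2.60 FPKM) the groups overlapped. MKI67, TOP2A, CCNB1 and CDK1 of dividing cells summed to 167 to 214 FPKM in NB4 controls and 213 to 230 FPKM with OGP46. The promyelocytic markers summed to 1590 to 2782 FPKM with OGP46, which overlaps the controls, and MPO, ELANE, PRTN3 and AZU1 were lower in every pair while CD33 was higher. CD3D and CD3E summed to 22.5 to 34.7 FPKM with OGP46, above all controls, with CD3E at 0.0326 FPKM or less. The part of these markers in the results was not tested.

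Samples with the same number deviated together in both lines, so the fit was repeated with the number as a replicate block, which compares each OGP46-treated sample with the control of its number. With the block, 1 of 31 members was up-regulated in NB4 (5.06% of all genes) and 0 were down-regulated (1.15%). It was SLC2A3, the high-affinity glucose transporter GLUT3, on chromosome 12 (hg38, 7919230 to 7936275, minus strand). SLC2A3 was at 10.7, 6.91 and 10.8 FPKM in NB4 controls and at 16.0, 13.3 and 18.5 FPKM in OGP46-treated cells. All treated samples lay above all controls. The log2 fold change was 0.76 ± 0.19 (SE, n = 3), with an adjusted p of 0.0688 by limma without the block and 0.000448 with it. Relative to the median of all genes the change was 0.58. When the samples were first centred on their medians, the log2 fold change was 0.54, under the fold minimum, with an adjusted p of 0.00687 with the block and 0.241 without it. Without both samples numbered 2, SLC2A3 was at 0.67 and passed without and with the block (adjusted p = 0.00761 and 0.00287).

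The other glucose transporter, SLC2A1 (GLUT1), a textbook target of HIF, stayed near its control level. It was at 12.0, 13.4 and 14.0 FPKM in NB4 controls and 11.1, 15.1 and 12.7 FPKM with OGP46, so the groups overlapped. Its log2 fold change was -0.02, with a 95% interval from -0.31 to 0.26 and an adjusted p of 0.907. The share of SLC2A3 in the summed FPKM of both transporters was 47.1%, 33.9% and 43.7% in the controls and 58.9%, 46.8% and 59.3% in treated samples. The exact permutation test gave p = 0.2 (two-sided), where 0.1 is the smallest p that 3 against 3 samples allow, and each pair showed the higher share with OGP46.

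Without a fold minimum, 8 of 31 members passed the adjusted p with the block in NB4, all higher (25.8%), where 22.9% of all genes passed in either direction and 1.88% as lower. They are SLC2A3, HK1, PFKFB3, PFKFB4, PKM, SLC16A3, HIF1A and VEGFA, with log2 fold changes from 0.35 to 0.76. This pattern depended on the scaling. Over all genes, the block gave 595 higher and 135 lower calls on the deposited scale, and 188 higher and 203 lower after median centring. After median centring with the block, only SLC2A3 and VEGFA of these 8 still passed as higher (5.12% of all genes), and 6 members passed as lower (9.26% of all genes). These were the hexokinase HK2, the isomerase GPI, the liver-type phosphofructokinase PFKL, the mutase PGAM1, LDHB and the lactate transporter SLC16A1, with centred log2 fold changes from -0.43 to -0.21. On the deposited scale, none of the 6 passed in NB4, and their log2 fold changes lay between -0.21 and 0.01.

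VEGFA, the vascular growth factor under control of HIF, came second by size of change. It was at 16.3, 11.6 and 11.4 FPKM in NB4 controls and at 20.4, 20.7 and 16.7 FPKM in treated cells. The lowest treated sample stood just above the highest control. The log2 fold change of 0.57 ± 0.15 lay just under the minimum, with an adjusted p of 0.0754 and, with the block, 0.00356. Median centring with the block left 0.35 and an adjusted p of 0.0416. Without both samples numbered 2, VEGFA was at 0.43 (adjusted p = 0.122, with the block 0.0966). HIF1A itself was at 17.3, 14.8 and 14.9 FPKM in controls and 21.5, 19.0 and 20.9 FPKM in treated cells, without overlap. Its log2 fold change of 0.39 ± 0.09 had an adjusted p of 0.0662, and 0.00952 with the block. After median centring with the block it was 0.17, with an adjusted p of 0.0694, and without both samples numbered 2 the blocked fit gave HIF1A an adjusted p of 0.129.

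PKM encodes pyruvate kinase of the M type, which makes the last ATP of the pathway. It was at 220, 217 and 207 FPKM in NB4 controls and at 285, 275 and 289 FPKM with OGP46. These are tight groups that lie well apart. PKM was the member with the smallest adjusted p without the block (log2 fold change 0.40 ± 0.07, adjusted p = 0.0335), and the block gave 0.00352. Centred on the median with the block, the change was 0.18, with an adjusted p of 0.0540. Without both samples numbered 2 the adjusted p was 0.0525. In Kasumi-1, PKM was at 104, 118 and 106 FPKM and, with OGP46, at 117, 117 and 127 FPKM, a log2 fold change of 0.14 (adjusted p = 0.367).

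HK1, the hexokinase of most tissues, was a minor form in NB4, at 2.36, 2.52 and 2.85 FPKM in controls and 3.99, 2.94 and 4.17 FPKM with OGP46. The treated samples were all higher, and sample 2 only slightly. The log2 fold change was 0.49 ± 0.15, with an adjusted p of 0.0948, and 0.0156 with the block. Without both samples numbered 2 it was 0.63 and passed the fold minimum in both fits (adjusted p = 0.0286 and 0.00829). HK2, the inducible and main hexokinase of NB4, was at 23.9, 20.9 and 26.2 FPKM and then 17.9, 19.8 and 24.1 FPKM, lower in every pair, though the groups overlapped. Its log2 fold change was -0.21 ± 0.13 (adjusted p = 0.307, with the block 0.122), and -0.43 after median centring with the block (adjusted p = 0.00774). HK1 made up 8.98% to 10.7% of hexokinase FPKM in controls and 12.8% to 18.2% in treated cells. The groups did not overlap, and p = 0.1 in the exact permutation test is the smallest this design can give. The ratio within a sample does not depend on scaling.

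PFKFB3 and PFKFB4 make fructose 2,6-bisphosphate, the activator of phosphofructokinase. PFKFB3 was at 4.78, 5.13 and 4.99 FPKM in NB4 controls and 6.28, 6.95 and 6.99 FPKM with OGP46. Its log2 fold change of 0.43 ± 0.09 had an adjusted p of 0.0541, and 0.00911 with the block. The blocked fit without both samples numbered 2 gave 0.103. PFKFB4 was at 0.820, 0.614 and 0.878 FPKM in controls and 1.19, 0.931 and 1.17 FPKM with OGP46. All treated samples lay above the controls, by a log2 fold change of 0.46 ± 0.18 (adjusted p = 0.141, with the block 0.0417 and, without both samples numbered 2, 0.228). The phosphofructokinase subunits themselves moved by -0.10 to 0.09 in NB4, and none passed on the deposited scale.

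SLC16A3 (MCT4), which exports lactate, was at 93.9, 96.9 and 91.8 FPKM in NB4 controls and 110, 131 and 120 FPKM with OGP46, without overlap. The log2 fold change was 0.35 ± 0.08 (adjusted p = 0.0635, with the block 0.00999 and, without both samples numbered 2, 0.237). Its share of the summed FPKM of the 2 monocarboxylate transporters was higher with OGP46 in every pair, at 73.8% to 76.4% in controls and 78.5% to 80.5% in treated cells (exact permutation p = 0.1, the smallest possible). CSNK1D on the other strand shares 336 of its 5173 exon bases and was at 11.4 to 13.3 FPKM in NB4.

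Apart from PKM, no abundant enzyme after the split of the sugar passed in NB4 on the deposited scale. GAPDH was at 1486, 1527 and 1444 FPKM in controls and 1506, 1639 and 1463 FPKM with OGP46, which gives a log2 fold change of 0.05 (95% interval -0.13 to 0.22) and -0.17 after median centring. LDHA and LDHB, the 2 subunits of lactate dehydrogenase, had log2 fold changes of 0.04 and 0.01. The LDHA share of their sum stood at 37.0% to 38.3% in controls and 37.2% to 38.6% with OGP46. ENO2, the neuronal enolase, was the third by size, but at 0.358, 0.214 and 0.351 FPKM against 0.479, 0.322 and 0.757 FPKM its groups overlapped (log2 fold change 0.56 ± 0.30, adjusted p = 0.237). ALDOA, TPI1, PGK1, ENO1 and PGAM1 ranged from -0.02 to 0.16, and ALDOA and TPI1 were higher in all treated samples, though they stood at -0.06 and -0.11 after median centring. Of the mitochondrial gate, PDK1, PDK3 and PDHA1 lay between -0.04 and 0.12, and none passed. BNIP3 and BNIP3L, HIF targets of mitophagy, had 0.04 and 0.28, with BNIP3L spread from 6.18 to 12.1 FPKM among treated samples. PFKFB2 had 0.04. The summed level of the list was 1.78% to 1.83% of all FPKM in controls and 1.68% to 1.84% with OGP46.

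**Figure D2:**
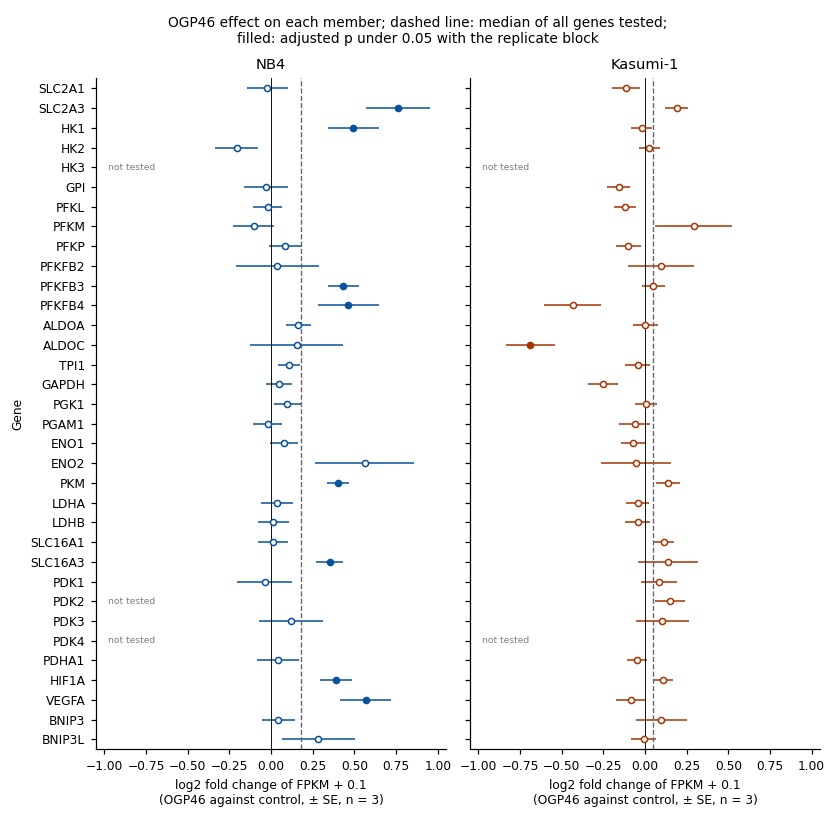
log2 fold change (± SE, n = 3) of each member for OGP46 against control in NB4 (left) and Kasumi-1 (right), with the median of all genes as a dashed line at 0.18 and 0.05. Filled points pass an adjusted p of 0.05 with the replicate block on the deposited scale: 8 members in NB4, all to the right, and ALDOC in Kasumi-1, to the left.

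In Kasumi-1 cells, ALDOC was the 1 member to pass with the block, and most members stayed close to their control level. Without the block, 0 of 32 members were called in either direction, where 0.0169% of all 11835 genes were called higher and 0.0169% lower. With the block, 0 members were called higher (0.27% of all genes) and 1 was called lower (0.346%). The median log2 fold change was -0.01, against 0.05 for all genes, and the median member lay 0.040, 0.077 and 0.086 below the median gene in the 3 pairs. Groups did not overlap for SLC2A3 and HIF1A, which were higher (6.25%, with 17.4% of all genes), and for GPI, PFKFB4, ALDOC and GAPDH, which were lower (12.5%, with 5.23% of all genes). The monocyte and macrophage markers named above summed to 13.9 to 18.4 FPKM in Kasumi-1 controls and 19.4 to 22.7 FPKM with OGP46. Most of this sum was CD68 (means of 9.16 and 12.6 FPKM) and FCGR1A (5.34 and 6.47 FPKM). CSF1R had means of 1.37 and 1.40 FPKM, and CD14 and ITGAM were at 0.139 FPKM or less. The promyelocytic markers summed to 7701 to 8878 FPKM with OGP46, below all controls. The part of either was not tested.

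ALDOC, the aldolase of brain, was the member down-regulated in Kasumi-1 with the block. It was at 3.49, 3.47 and 2.42 FPKM in controls and 1.95, 2.00 and 1.70 FPKM with OGP46. All treated samples lay below all controls. The log2 fold change was -0.69 ± 0.15, with an adjusted p of 0.0909 without the block, 0.0107 with it and 0.0033 with the block after median centring. When single samples were left out of the blocked fit, the adjusted p stayed at or below 0.0318. ALDOC made up 2.12% to 3.27% of aldolase FPKM in Kasumi-1 controls and 1.51% to 1.72% with OGP46 (exact permutation p = 0.1, the smallest possible). The main aldolase, ALDOA, was at 103, 124 and 112 FPKM and then 111, 117 and 111 FPKM, with a log2 fold change of 0.00 (adjusted p = 0.990).

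GAPDH, which the study used as a reference gene, was at 1745, 1942 and 1677 FPKM in Kasumi-1 controls and at 1502, 1535 and 1464 FPKM with OGP46. All treated samples were lower, by a log2 fold change of -0.25 ± 0.09 (adjusted p = 0.230, with the block 0.0883). Centred on the median with the block, the change was -0.32 with an adjusted p of 0.00597, and with TPM scaling and the block -0.23 with 0.0058. In that centred fit, 4 of 32 members passed as lower, GAPDH, ALDOC, GPI and PFKL (12.5%, with 7.06% of all genes), and 0 as higher (2.86% of all genes). The summed level of the 34 members was 1.32% to 1.37% of all FPKM in Kasumi-1 controls and 1.22% to 1.28% with OGP46, without overlap (exact permutation p = 0.1). Without GAPDH it was 0.71% to 0.76% in both groups.

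PFKFB4 was at 0.666, 0.647 and 0.494 FPKM in Kasumi-1 controls and 0.442, 0.412 and 0.396 FPKM with OGP46. Each treated sample was below each control, but the log2 fold change of -0.43 ± 0.17 did not pass (adjusted p = 0.272, with the block 0.150). SLC2A3 was at 15.5, 15.7 and 17.4 FPKM and then 18.2, 18.0 and 19.3 FPKM, a log2 fold change of 0.19 ± 0.07 (adjusted p = 0.227, with the block 0.0929). PFKM, the muscle-type phosphofructokinase, was at 0.232, 0.244 and 0.136 FPKM and then 0.259, 0.300 and 0.243 FPKM, with overlapping groups and a log2 fold change of 0.29 ± 0.23 (adjusted p = 0.565). VEGFA was at 17.2, 20.4 and 17.0 FPKM and then 16.6, 18.6 and 16.1 FPKM, lower in each pair (log2 fold change -0.09, adjusted p = 0.657). The other 26 tested members had log2 fold changes from -0.16 to 0.15, and none passed on the deposited scale.

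**Figure D3:**
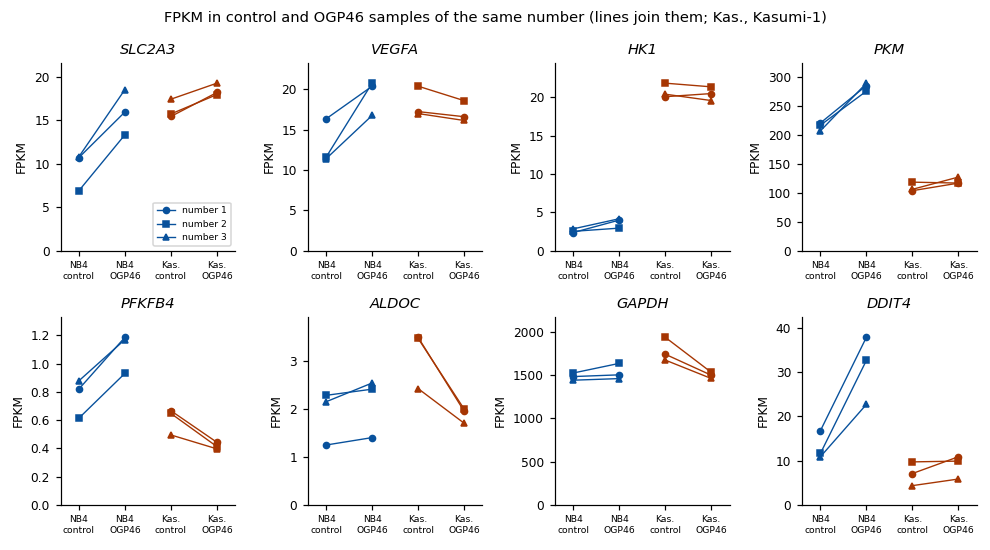
FPKM of 7 members and of DDIT4 in each sample (y axes from 0), with lines that join the control and OGP46-treated sample of the same number in NB4 (blue) and Kasumi-1 (brown). SLC2A3, VEGFA, HK1, PKM and DDIT4 lie higher with OGP46 along all NB4 lines, and PFKFB4, ALDOC and GAPDH lie lower along all Kasumi-1 lines.

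Whether OGP46 acted differently in the 2 lines was tested as the interaction of line and treatment. Without the block, 0 of 32 members passed (0.0% of all 12309 genes in either direction, with 1225 and 123 genes at an unadjusted p below 0.05). With the block, 4 members had the more positive change in NB4 (1.81% of all genes) and 0 the more negative (0.114%). They were SLC2A3, PFKFB4, ALDOC and VEGFA, with adjusted p between 0.197 and 0.417 without the block. The difference of the log2 fold changes was largest for PFKFB4, at 0.90 ± 0.23 (adjusted p = 0.0374 with the block). Each NB4 pair was higher, as for 52.9% of all genes, and each Kasumi-1 pair was lower, as for 13.8% of all genes. For ALDOC it was 0.84 ± 0.35, with an adjusted p of 0.0241 with the block. For VEGFA it was 0.65 ± 0.19 and for SLC2A3 0.57 ± 0.22, with adjusted p of 0.0342 and 0.0328 with the block. The SE of these 4 differences are those of the fit without the block. The median of all genes was itself 0.12 higher in NB4, and after median centring with the block only ALDOC passed (adjusted p = 0.0467).

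The largest differences within the list were between the lines, not with treatment. Between the controls, 7 of 32 members were higher in NB4 and 7 lower, in shares of 21.9% and 21.9%, where 22.7% of all 12302 genes were higher and 29.7% lower. Groups did not overlap for 13 members in the higher direction (40.6%, with 34.6% of all genes) and for 14 in the lower (43.8%, with 43.1% of all genes). The members higher in NB4 were SLC16A3, PFKM, ALDOA, PKM, BNIP3, PGAM1 and LDHA, and those lower were PDK2, HK1, PFKP, GPI, SLC2A3, ALDOC and PFKFB2. LDHB, at 0.58 ± 0.08, lay just under the fold minimum. The replicate block gave 7 and 7 members as well. TPM scaling turned the split over all genes from 2790 higher and 3659 lower to 3595 higher and 2994 lower, and gave 9 members higher and 5 lower. After median centring, ALDOC and PFKFB2 no longer passed (-0.58 with adjusted p = 0.0647, and -0.57 under the fold minimum), and LDHB passed at 0.72.

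SLC16A3 stood out among the genes higher in NB4. It was at 93.9 to 96.9 FPKM in NB4 controls and at 3.23, 5.35 and 3.18 FPKM in Kasumi-1 controls, a log2 difference of 4.59 ± 0.18 (adjusted p = 7.76e-08). The importer and exporter SLC16A1 (MCT1) was at 31.0 ± 2.55 FPKM in NB4 and 42.8 ± 1.85 FPKM in Kasumi-1. SLC16A3 thus made up 73.8% to 76.4% of the pair in NB4 controls and 6.62% to 11.3% in Kasumi-1 controls. PFKM was at 2.16, 2.17 and 1.96 FPKM in NB4 controls, against 0.136 to 0.244 FPKM in Kasumi-1 (log2 difference 2.87 ± 0.18). Of its 4776 exon bases, 413 overlap SENP1 on the other strand, which was at 6.54 to 8.09 FPKM in NB4 controls and 4.59 to 4.90 FPKM in Kasumi-1 controls. ALDOA was at 256, 270 and 252 FPKM and at 103, 124 and 112 FPKM (log2 difference 1.20 ± 0.08). PKM was at 215 ± 7.04 FPKM and 109 ± 7.92 FPKM (0.98 ± 0.07). BNIP3 was at 28.5, 31.6 and 32.0 FPKM and 18.4, 19.8 and 12.8 FPKM (0.87 ± 0.15). For these 5 members, all NB4 controls lay above all Kasumi-1 controls.

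PDK2, a kinase that shuts off pyruvate dehydrogenase, was nearly absent from NB4. It was at 0.0123, 0.0439 and 0.0705 FPKM in NB4 controls and at 5.44, 5.77 and 5.31 FPKM in Kasumi-1 controls, a log2 difference of -5.32 ± 0.18 (adjusted p = 5.78e-08). The NB4 control values were 0.223%, 0.798% and 1.28% of the Kasumi-1 control mean. CD34, a marker of Kasumi-1, was at 0.0617%, 0.158% and 1.35% of its Kasumi-1 control mean in the same samples. In NB4 cells with OGP46, PDK2 was at 1.10%, 2.04% and 0.237% of that mean, and CD34 at 0.0449%, 0.0153% and 0.0825% of its own. SAMD14 on the other strand shares 2113 of the 3873 exon bases of PDK2 and was at 0.313 FPKM or less. PDK1, the HIF-regulated kinase, made up 73.8% to 79.7% of the kinase FPKM in NB4 controls and 46.9% to 52.3% in Kasumi-1 controls, at 4.71 ± 0.277 and 6.64 ± 0.695 FPKM. HK1 was at 2.36 to 2.85 FPKM in NB4 and at 20.1, 21.9 and 20.4 FPKM in Kasumi-1 controls (-2.97 ± 0.09, adjusted p = 5.43e-08), while HK2 was at 23.7 ± 2.61 and 19.4 ± 0.868 FPKM, a small difference under the fold minimum (0.28 ± 0.09, adjusted p = 0.0204). HK1 was thus 8.98% to 10.7% of hexokinase FPKM in NB4 controls and 50.7% to 52.2% in Kasumi-1 controls.

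The other members lower in NB4 controls were less far apart. PFKP, the platelet-type phosphofructokinase, was at 8.93, 9.20 and 8.13 FPKM against 19.8, 23.0 and 24.0 FPKM (-1.34 ± 0.09), and GPI at 15.7, 18.9 and 16.2 FPKM against 32.6, 38.6 and 35.8 FPKM (-1.07 ± 0.10). SLC2A3 was lower in NB4 by 0.79 ± 0.16 on the log2 scale (adjusted p = 0.00179). PFKL was the main phosphofructokinase in both lines, at 67.7% to 71.3% and 56.6% to 59.7% of the subunits, with PFKP second. HIF1A was at 15.6 ± 1.40 and 17.4 ± 0.544 FPKM, and the difference did not pass (-0.16 ± 0.08, adjusted p = 0.110). PDHA1 and PDK3 did not pass either, at 0.02 and 0.18.

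**Figure D4:**
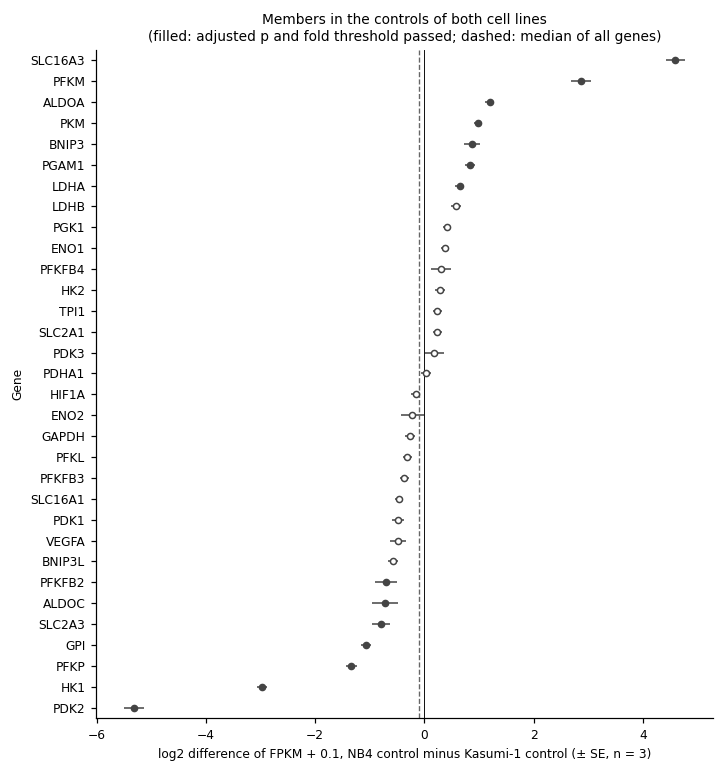
log2 difference (± SE, n = 3) of 32 members between NB4 and Kasumi-1 controls, sorted, with filled points for the 14 that passed and a dashed line at the median of all genes (-0.10). SLC16A3 and PFKM lead on the right, and PDK2 and HK1 on the left.

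**Figure D5:**
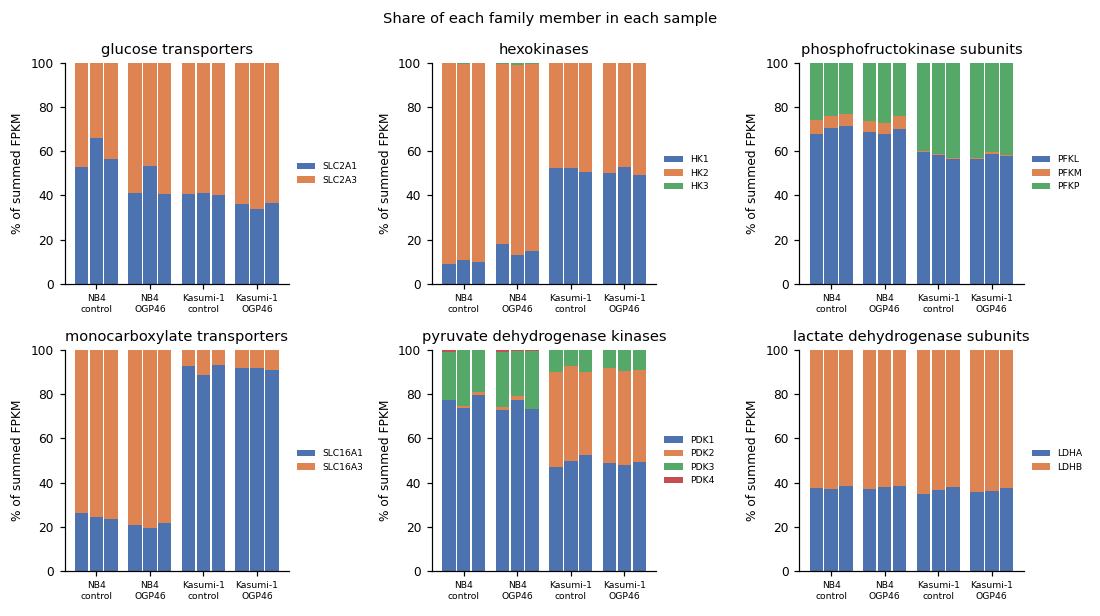
Share of each gene in the summed FPKM of its family (y axis, %) in each of the 12 samples, as stacked bars that start at 0. SLC16A3, HK2 and PDK1 fill more of the NB4 bars than of the Kasumi-1 bars, and the lactate dehydrogenase bars are alike in all samples.

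Further genes of the pathway were taken from 4 lists. Of 20 tested further targets of HIF, DDIT4 alone was up-regulated in NB4 without the block (1.45% of all genes), and 0 were down-regulated (0.111%). DDIT4, an inhibitor of mTOR signalling that also responds to other stress, was at 16.7, 11.6 and 10.9 FPKM in NB4 controls and at 37.9, 32.6 and 22.7 FPKM with OGP46. The groups lay apart, with a log2 fold change of 1.24 ± 0.21 (adjusted p = 0.0351, with the block 1.5e-05). After median centring it was 1.02, with an adjusted p of 0.166 without and 0.00255 with the block. In Kasumi-1, DDIT4 was at 7.06, 9.69 and 4.33 FPKM and then 10.8, 9.87 and 5.82 FPKM, and the groups overlapped (0.35 ± 0.28, adjusted p = 0.572).

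With the block, 3 of the 20 HIF targets were up-regulated in NB4 (5.06% of all genes), DDIT4 and STC2 among them, and 0 were down-regulated (1.15% of all genes). STC2, a secreted glycoprotein, was at 0.846, 0.297 and 0.286 FPKM in NB4 controls and 1.28, 1.43 and 0.527 FPKM with OGP46 (1.06 ± 0.44, adjusted p = 0.153, with the block 0.0117). Without both samples numbered 2, STC2 did not pass (0.62, adjusted p = 0.313, with the block 0.104), while DDIT4 did (adjusted p = 0.00423 without the block). The peptide hormone gene ADM passed in neither fit of all samples, but did so when these were left out (0.67, adjusted p = 0.0280, with the block 0.00779). After median centring with the block, STC2 was at 0.84 with an adjusted p of 0.0841. The median of the 20 targets was 0.28, and 14 of them lay above the median of all genes (0.18). In Kasumi-1 their median was -0.01 over 21 targets, 0 were called in either fit, and 8 lay above the median of all genes (0.05).

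Of 21 other tested genes of glycolysis and pyruvate use, 0 were called in NB4 without the block and 2 with it, both higher (5.06% of all genes, with 1.15% lower). ENO3, the muscle enolase, was at 0.321, 0.422 and 0.282 FPKM in controls and 0.544, 0.696 and 0.718 FPKM with OGP46 (0.77 ± 0.20, with the block adjusted p = 0.0173). SLC2A6, a transporter of lysosomes, was at 7.42, 2.11 and 6.90 FPKM and then 10.4, 4.45 and 9.72 FPKM (0.67 ± 0.49, with the block adjusted p = 0.00327), so sample 2 of each group was the lowest. Without both samples numbered 2, SLC2A6 was at 0.48, under the fold minimum, and ENO3 passed with the block only (0.86, adjusted p = 0.0318, without the block 0.0687). SLC2A5, a fructose transporter, was at 2.72, 10.8 and 3.33 FPKM in NB4 controls and 1.31, 11.0 and 1.95 FPKM with OGP46, highest in sample 2 of each group. Its log2 fold change of -0.57 lay just under the minimum (adjusted p = 0.630, with the block 0.0264). When both samples numbered 2 were left out, SLC2A5 was called lower in both fits (-0.87, adjusted p = 0.0148, with the block 0.000168). After median centring with the block, SLC2A5 was called lower as well (-0.80, adjusted p = 0.0274), while ENO3 (adjusted p = 0.0740) and SLC2A6 (0.0513) did not pass. The list had a median of 0.13 in NB4 and 0.09 in Kasumi-1, where 0 of 23 were called. Of 7 tested genes of the HIF pathway and 7 sensors of glucose and growth, 0 were called in either line, with or without the block. In NB4 their medians were 0.20 and 0.10.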

How the data were processed

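mRNA was sequenced from NB4 and Kasumi-1 cells, 3 control and 3 OGP46-treated samples each, from poly(A) RNA with a stranded kit. The authors deposited 1 FPKM value per gene and sample. Their processing notes name Trimmomatic, HISAT2, Cufflinks and HTSeq with the build hg38. The roles of these tools, their versions and the annotation are not given in the sources used here, nor whether strand was used, so values of overlapping genes are uncertain. Depth is unknown, and precision rests on 3 samples per group. Groups follow the labels. The 27 symbols turned into dates were left out, which left 20003 genes.

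log2(FPKM + 0.1) was compared by limma 3.58.1 in R 4.3.3 over all genes whose mean reached 0.1 FPKM. This scale understates changes of low genes. The SE given with log2 fold changes and differences are those of the fit without the replicate block throughout. A gene was called at a Benjamini-Hochberg adjusted p under 0.05 over all genes and a log2 fold change reaching 0.58, and the difference between the lines at the adjusted p alone. The method was tested on simulated data. Same-numbered samples deviated together over genes of at least 5 FPKM (r = 0.662, 0.85 and 0.439 in NB4, and 0.416, 0.433 and 0.621 in Kasumi-1). Over all genes tested, r was lower, at 0.355, 0.622 and 0.197 in NB4 and 0.218, 0.157 and 0.395 in Kasumi-1. In NB4, numbers 1 and 3 also deviated together across the groups (r = 0.289 and 0.224 over genes of at least 5 FPKM). This pairing comes from the data, since the labels give only the numbers, and the fit with the number as a block is given beside results it changes. Shares were compared by two-sided exact permutation tests. Alternatives were other pseudocounts, filters and scalings, a joint model of 12 samples and single samples left out. Exon overlaps were read from GENCODE release 29 (hg38).

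The members and lists were chosen with earlier results of these data known. The text names members called in either fit, the 5 largest changes per cell line, the 5 largest control differences in each direction, the most abundant member of each family, and called genes of the other lists, of which 1, like 2 of the marker lists, is not reported here. PKM, HIF1A, PFKFB3 and SLC16A3 in NB4, VEGFA in Kasumi-1, ADM and SLC2A5 were named after their values were seen.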

Additional observations from a re-analysis of the deposited data

Results flagged for a closer look

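The change with OGP46 in NB4 was set against that in Kasumi-1 for 5 members, which either passed the test of the difference with the replicate block or went in opposite directions in all pairs of the 2 lines. Higher in all NB4 pairs were 15 of 31 members and 52.9% of all genes. Lower in all Kasumi-1 pairs were 9 of 32 members and 13.8% of all genes. How many of all genes did both was not counted. For PFKFB4 the change in NB4 minus that in Kasumi-1 was 0.90 (limma adjusted p = 0.197, with the block 0.0374), and the pairs went in opposite directions. For ALDOC it was 0.84 (adjusted p = 0.417, with the block 0.0241), also with opposite directions. For VEGFA it was 0.65 (adjusted p = 0.25, with the block 0.0342), again with opposite directions. For SLC2A3 it was 0.57 (adjusted p = 0.385, with the block 0.0328), and all pairs of both lines were higher. For GAPDH it was 0.30 with opposite directions, and the difference did not pass in either fit (adjusted p = 0.384, with the block 0.138). After median centring with the block the adjusted p were 0.0836, 0.0467, 0.0691, 0.0699 and 0.405 in this order.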

How the results depend on the processing

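Of the 31 members tested in NB4, 0 were called higher in the fit without the block. The joint model of 12 samples gave 1 (393 of all 12309 genes), the replicate block 1 (595 of 11750), and the block with TPM scaling 1 (310 of 11795). Leaving out single samples gave 0 to 2 without the block, with 2 without OGP46-treated sample 2 (368 of all 11767 genes). With the block it gave 1 to 2, where 530 to 706 of all genes were called higher. Leaving out both samples numbered 2 gave 2 without and 2 with the block (478 and 624 of all 11766 genes). The median of the members minus that of all genes in NB4, -0.0919, was -0.0570 with a pseudocount of 1, -0.0447 without a filter and -0.0157 after quantile normalization, and ranged from -0.1171 to -0.0582 with single samples left out. In Kasumi-1 it was -0.0600, and -0.0323 after quantile normalization. The count of members lower in Kasumi-1, 0 without the block, was 1 with the block (41 of all 11835 genes). It was 1 with the block and median centring (67 of 11835) and 1 with the block and TPM scaling (46 of 11793). It was also 1 each time a single sample was left out of the blocked fit (39 to 92 of all genes). The count of members with a more positive change in NB4 than in Kasumi-1, 0 without the block, was 4 with it (223 of all 12309 genes). With the block and median centring it was 1 (97 of 12309). In NB4, the call of DDIT4 was lost without a filter (adjusted p = 0.0879), with TPM scaling (0.124), median centring (0.166) and quantile normalization (0.157), and in 5 of 6 fits that left out a sample (0.050 to 0.156). The causes were not tested. Over all genes, calls in NB4 went from 170 higher and 13 lower without the block to 595 and 135 with it, and in Kasumi-1 from 2 and 2 to 32 and 41. Without the block, 0 genes were called in NB4 after TPM scaling or median centring by limma, with 284 and 159 higher and 177 and 252 lower at an unadjusted p below 0.05 and the fold minimum. Fits that left out both samples numbered 2, blocked fits that left out a sample and sums without GAPDH were chosen after seeing the data. A sample left alone with its number adds nothing to a blocked fit. Depth is unknown, so nothing can be said of the counting error of low genes such as PFKM, ENO2 and PDK2.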
